A study of Mus musculus with 8 samples.

Results

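RNA polymerase subunits and general transcription factors were described in serum-starved and unstarved IMCD3 cells, an established mouse kidney line of inner medullary collecting duct epithelium. Members were chosen by the gene name printed in the array's scanner files: every non-control probe whose name starts with Polr1, Polr2, Polr3, Gtf2, Gtf3 or Taf1 was taken, which gave 96 of 41174 probes and 54 of 27597 genes. The rule uses names alone and no measured value. Starved cells were cultured for 48 h with 0% fetal calf serum, a treatment used to bring on cilium formation. Unstarved cells, in 10% serum, had been replated at a 1 to 10 dilution on the preceding day and were collected before they were confluent. Serum and cell density therefore differ together and cannot be told apart. Both groups are the same unmodified line, with 4 samples each from 2 replicates. Every starved sample shared a 2-colour Agilent array with an unstarved one, which gives 4 hybridisations.

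Eukaryotic nuclei divide transcription among 3 RNA polymerases: Pol I makes the large ribosomal RNA precursor, Pol II makes messenger RNA, and Pol III makes transfer RNA, 5S ribosomal RNA and other short RNAs. Each enzyme has its own large catalytic subunits, and a set of small subunits is shared by all of them. General transcription factors help place each enzyme on its promoters. Among them are SL1 for Pol I and, for Pol II, TFIIA to TFIIH and the TBP-associated factors (TAFs) of TFIID. TFIIIA and TFIIIC are among those of Pol III. Output of Pol I and Pol III is known to follow growth conditions in many cell types.

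Promoter sequences are shown first for 3 genes whose transcripts the results turn on. Polr3g and Polr3gl encode alternative forms of the same Pol III subunit, and Gtf2ird2 encodes a member of the TFII-I family. Each window runs from 250 bases before to 50 bases after the annotated start, on the gene's strand, from RefSeq on GRCm38.p6. Capitals mark an E-box (CACGTG) or the ETS core (ACTTCCGG, in capitals as its reverse complement where it lies on the other strand).
Polr3g, chr13:81710964-81711263, minus strand: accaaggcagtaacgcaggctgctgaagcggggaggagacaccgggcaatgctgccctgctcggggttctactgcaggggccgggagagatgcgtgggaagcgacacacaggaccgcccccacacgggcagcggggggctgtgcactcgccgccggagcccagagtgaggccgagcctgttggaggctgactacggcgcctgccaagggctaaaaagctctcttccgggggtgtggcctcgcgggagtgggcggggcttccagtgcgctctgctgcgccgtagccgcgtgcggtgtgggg
Polr3gl, chr3:96594132-96594431, minus strand: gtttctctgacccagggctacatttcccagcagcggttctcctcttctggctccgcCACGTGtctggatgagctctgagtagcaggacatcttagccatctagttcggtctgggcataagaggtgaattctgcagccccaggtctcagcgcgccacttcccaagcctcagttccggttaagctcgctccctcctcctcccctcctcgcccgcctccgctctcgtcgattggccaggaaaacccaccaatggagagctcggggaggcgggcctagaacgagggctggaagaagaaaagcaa
Gtf2ird2, chr5:134183788-134184087, plus strand: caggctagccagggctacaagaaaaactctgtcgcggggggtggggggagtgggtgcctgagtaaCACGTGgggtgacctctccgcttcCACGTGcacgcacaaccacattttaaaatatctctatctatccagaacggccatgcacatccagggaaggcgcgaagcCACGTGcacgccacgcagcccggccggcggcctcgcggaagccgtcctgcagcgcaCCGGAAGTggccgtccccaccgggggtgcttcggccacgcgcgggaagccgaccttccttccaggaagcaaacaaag
The Polr3gl window holds 1 E-box, 194 bases before the start. The Gtf2ird2 window holds 3 E-boxes, at 185, 161 and 83 bases before the start, and an ETS core 27 bases before it. In the Polr3g window neither these letters nor the other searched motifs, the NRF1 motif and the TATA box TATAAA, were found.

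Of the 54 genes, 47 were matched to the promoter table, and both strands of each window were searched; CACGTG reads the same on both strands. The ETS core was present for 15 of the 47 genes (31.9%), against 4.31% of all 27025 genes in the table. The E-box was present for 10 (21.3%), against 8.09% of all genes, TATAAA for 6 (12.8%), against 15.7%, and the NRF1 motif for 0, against 1.07%. Counted by single windows of this length, the shares over all 32851 promoters were 3.89% for the ETS core, 7.15% for the E-box, 13.6% for TATAAA and 0.971% for the NRF1 motif. Among genes called lower in starved cells, the E-box was in 2 and the ETS core in 3 of 7 matched, and among those called higher each was in 2 of 4 matched. A match of letters is a description and not evidence of a bound factor.

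Levels below are log2 intensities after normalization, and differences are log2 ratios, starved over unstarved, within a hybridisation. By the labels hybridisations 1 and 3 are replicate 1, with starved RNA in Cy5, and hybridisations 2 and 4 are replicate 2, with starved RNA in Cy3, so replicate and dye orientation cannot be told apart. The ratios of the hybridisations of one replicate correlated at 0.991 across probes and those of different replicates at 0.824 to 0.830. Standard errors are limma's moderated ones with n = 2 replicates, and a gene was called at a Benjamini-Hochberg adjusted p below 0.05 over all 16068 genes tested. In bulk RNA, fewer cells of a type and less transcript per cell cannot be told apart. The epithelial markers Cdh1, Epcam, Krt8, Krt18, Krt19 and Cldn7 were well above background on all 4 arrays in both groups, and Cdh1 (0.67), Epcam (0.61) and Cldn7 (0.60) were higher in starved cells while Krt8 (−0.64) and Krt19 (−0.90) were lower. Of 7 collecting duct markers all but Scnn1b entered the test, and Scnn1g (2.30) and Hsd11b2 (0.35) were higher. Aqp2 (−0.19), Aqp3 (−0.21), Scnn1a (−0.07) and Gata3 (−0.18) were below 0 and not called. The median of the tested collecting duct markers was −0.12. Hsd11b2 was above background on 4 starved arrays and 1 unstarved array, so it entered only through the group where it was higher. Of 9 fibroblast markers, 6 (Thy1, Pdgfra, Pdgfrb, Lum, Dcn and Col3a1) were above background on 0 arrays, and the other 3 summed to intensities of 569 to 640 in starved and 959 to 1076 in unstarved samples. Among the latter, Postn was above background on 0 starved and 4 unstarved arrays. Of 6 leukocyte markers, Adgre1 and Itgam were above background on 0 arrays, and the other 4 summed to 8211 to 9053 in starved and 3586 to 3655 in unstarved samples, with Csf1r higher in starved cells (log2 ratio 1.44) and Ptprc lower (−0.50). Ptprc was above background on 2 starved and 4 unstarved arrays, so it entered only through the group where it was higher. Of 4 endothelial markers, Pecam1, Cdh5 and Kdr were above background on 0 arrays, and none entered the test. What these marker differences contribute to the values below was not tested.

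Of the 54 genes, 53 were tested; Gtf2a1l, a germ cell form of a TFIIA subunit, was not well above background. Polr3g, Polr2h, Polr1e, Polr3k, Polr3d, Taf12, Taf11 and Polr3f were lower in starved cells, and Taf1, Gtf2ird2, Gtf2ird1 and Polr3gl were higher. These 12 called genes are 22.6% of those tested, while 31.4% of all genes tested were called. By direction, 8 of the 53 members were lower, with 13.4% of all genes called lower, and 4 of the 53 were higher, with 18.1% called higher. No member reached a 2-fold difference, the largest being 1.71-fold. The family was thus not called more often than other genes.

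The bulk of the family lay slightly below 0. Of the 53 genes, 38 had a log2 ratio below 0, as did 49.3% of all genes, and 30 were below 0 on all 4 hybridisations, as were 33.3% of all genes. Another 10 were above 0 on all 4 hybridisations (36.1% of all genes), and 13 had mixed signs. The median log2 ratio was −0.14 over the members and 0.01 over all genes. Levels of the 4 starved and 4 unstarved samples did not overlap for 31 members, against 51.8% of all genes. Of these, 23 were lower and 8 higher in starved cells, against 23.5% and 28.3% of all genes. The 4 samples of a group are 2 replicates on 2 hybridisations each, so they are not 4 independent values. The distance between the 2 medians was −0.14 with loess and −0.27 with median centring.

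**Figure D1:**
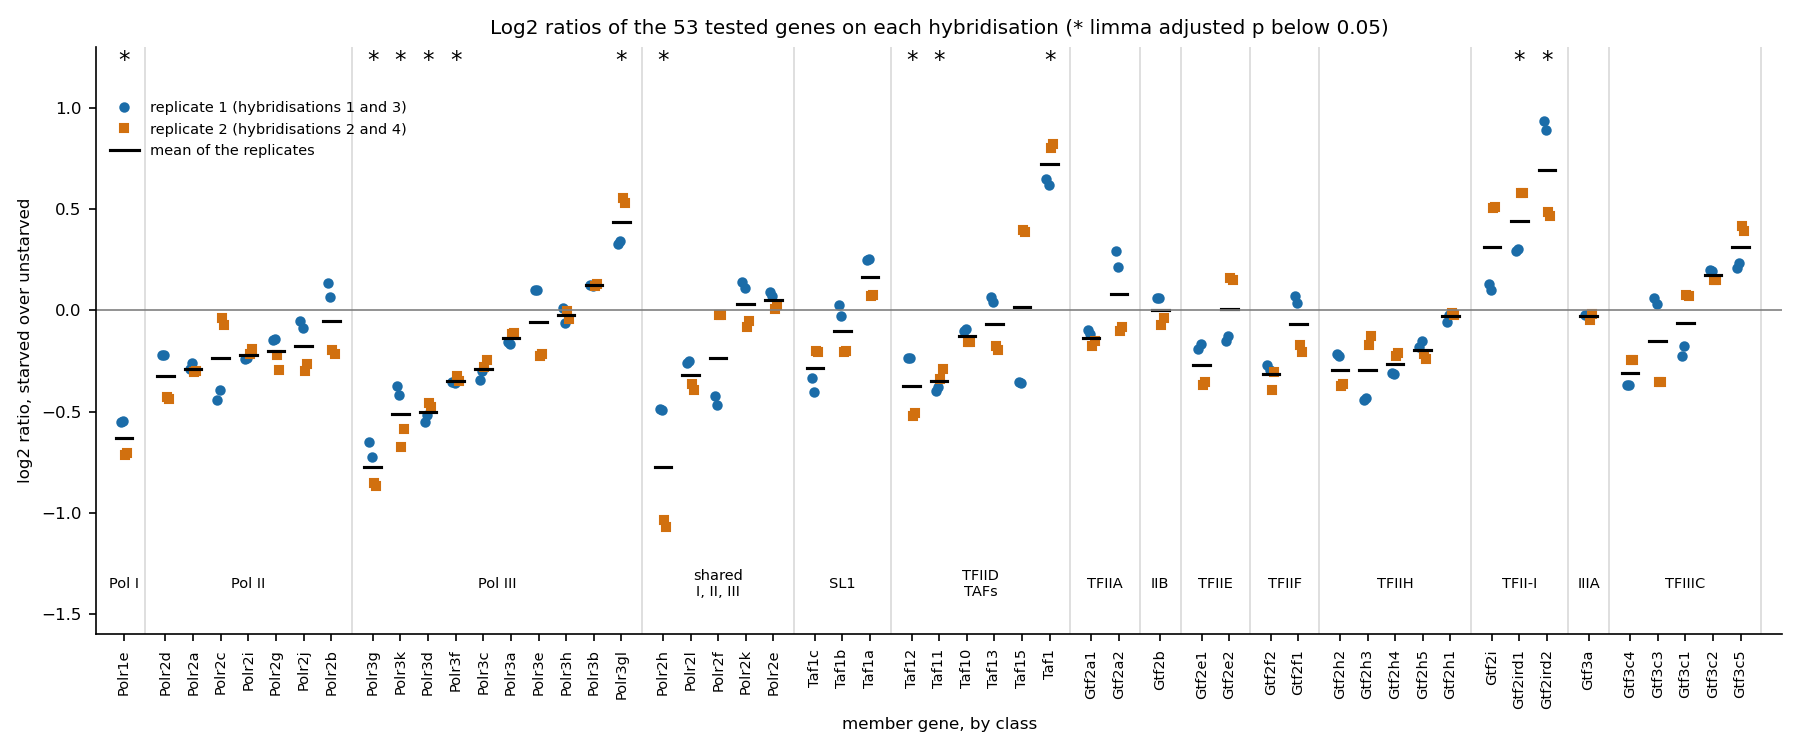
Log2 ratios, starved over unstarved (vertical axis), of the 53 tested genes on each of the 4 hybridisations, grouped by class along the horizontal axis. Circles are replicate 1, squares replicate 2, bars the mean of both, and asterisks the 12 called genes; most genes sit between −0.5 and 0.5, and the 3 TFII-I genes lie above 0 throughout.

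Pol III subunits moved in both directions. Of 10 genes, Polr3g, Polr3k, Polr3d and Polr3f were lower in starved cells and Polr3gl was higher, and the other 5 were not called. Of all genes tested, 13.4% were called lower and 18.1% higher. The median log2 ratio of the 10 was −0.21, and it was −0.25, −0.25, −0.23 and −0.23 on hybridisations 1 to 4. Their range, −0.77 to 0.44, was wider than that of the Pol II subunits.

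Polr3g and Polr3gl are paralogues for one position in the subcomplex that Pol III uses to start transcription, and a given enzyme carries one or the other. In human cells POLR3G is known from pluripotent and transformed cells and POLR3GL from most differentiated tissues. Polr3g had levels of 11.51, 11.41, 11.39 and 11.12 in starved samples and 12.15, 12.26, 12.11 and 11.98 in unstarved samples, in the order of hybridisations 1 to 4. All starved samples were below all unstarved ones. Its log2 ratio was −0.77 ± 0.12 SE (1.71-fold lower, limma adjusted p = 1.7e-04), with −0.65, −0.85, −0.72 and −0.87 on the single hybridisations.

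The fall of Polr3g was seen with each of its 3 probes, at −0.77, −0.50 and −0.74, and each was called when probes were tested one by one. The value of −0.50 is that of a probe at chr13:82171985-82172044 (mm8, minus strand), shown because it lies apart from the other probes, which are closer to each other.
Polr3g probe: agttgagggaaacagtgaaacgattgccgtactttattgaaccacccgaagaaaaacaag
Polr3gl had levels of 13.70, 13.86, 13.73 and 14.00 in starved samples and 13.37, 13.30, 13.39 and 13.47 in unstarved samples. Again the groups did not overlap, in the other direction. Its log2 ratio was 0.44 ± 0.13 (1.36-fold higher, limma adjusted p = 0.014), with 0.33, 0.56, 0.34 and 0.53 on the hybridisations, from its only probe.

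Taken as a difference of log2 ratios, Polr3gl minus Polr3g was 0.98, 1.41, 1.07 and 1.40 on hybridisations 1 to 4, with a mean of 1.21. The balance of their transcripts was therefore 2.32-fold further toward Polr3gl in starved cells, as a description with no test of its own. The mean difference was 1.12 with median centring, 1.25 with Agilent's processed signals and 1.11 when all probes of a gene were averaged.

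**Figure D2:**
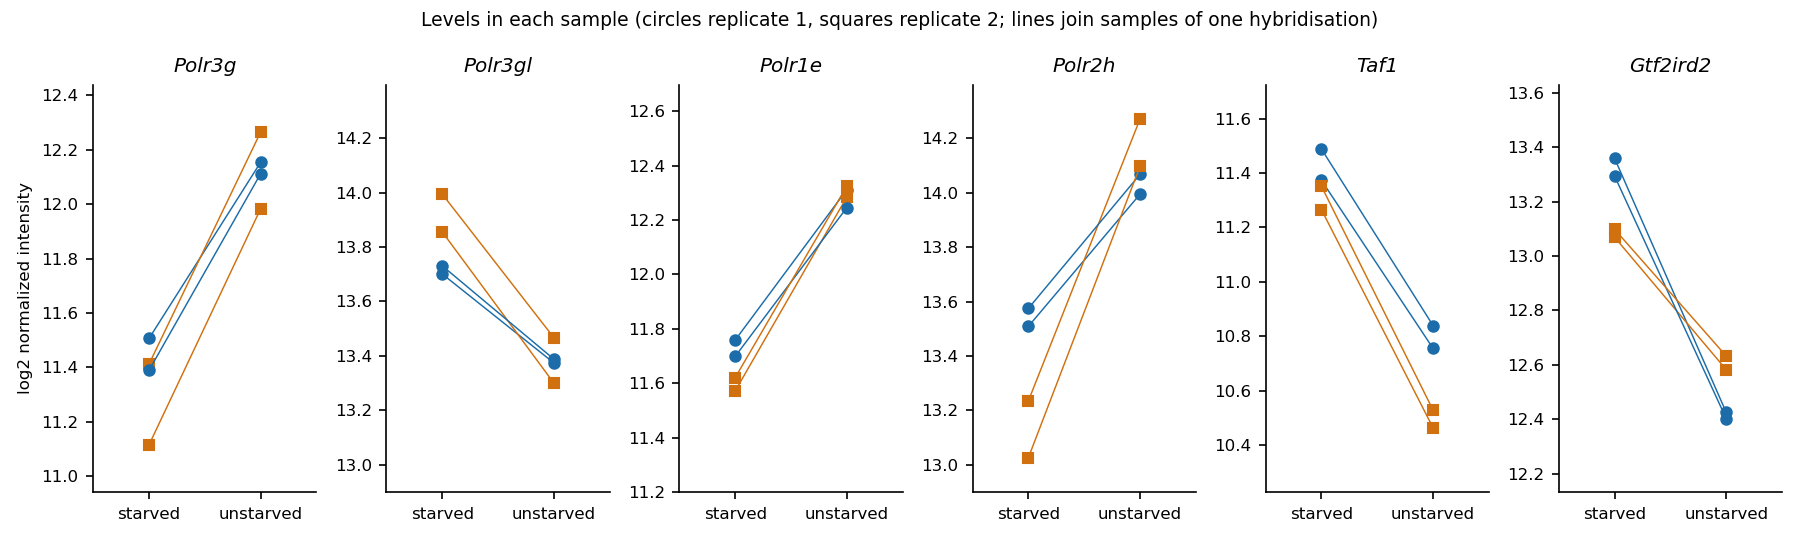
Log2 normalized intensity (vertical axis, same span in each panel) of Polr3g, Polr3gl, Polr1e, Polr2h, Taf1 and Gtf2ird2 in each starved (left) and unstarved (right) sample. Circles are replicate 1, squares replicate 2, and lines join the samples of one hybridisation; starved and unstarved samples do not overlap in any panel, and Polr3g and Polr3gl slope in opposite directions.

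Polr3k, the subunit that cleaves the transcript and serves termination and reinitiation, was 13.94, 13.83, 13.94 and 13.95 in starved samples and 14.31, 14.50, 14.36 and 14.54 in unstarved samples. The groups did not overlap, and the log2 ratio was −0.51 ± 0.13 (limma adjusted p = 0.0051). Its other probes gave −0.09 and −0.20 and were not called, so the call rests on the brightest probe. Polr3d, a subunit of the termination and reinitiation module, was 12.70, 12.85, 12.94 and 12.65 in starved and 13.25, 13.31, 13.46 and 13.12 in unstarved samples, again without overlap. Its log2 ratio was −0.50 ± 0.12 (limma adjusted p = 0.0051), from 1 probe.

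Polr3f, which forms the initiation subcomplex with Polr3c and Polr3g or Polr3gl, had a log2 ratio of −0.35 ± 0.12 (limma adjusted p = 0.042), but its 4 probes spread between −0.35 and 0.08. Averaging all probes of a gene ended the calls of Polr3k (−0.27, adjusted p = 0.12) and Polr3f (−0.12, adjusted p = 0.45). It added calls for Gtf2f2 and Gtf2h2, so that 8 members were again lower, with 30.5% of all genes called. Polr3c itself had −0.29 ± 0.12 and was not called (adjusted p = 0.084). Polr3e was not called with its brightest probe (−0.06), but its other probe was called when tested singly (−0.38, limma adjusted p = 0.033). The large subunits, which form the catalytic center, were close to 0: Polr3a had −0.16, −0.12, −0.16 and −0.11, and Polr3b had 0.12, 0.12, 0.12 and 0.13, on hybridisations 1 to 4. Neither was called (adjusted p = 0.43 and 0.49). Polr3a levels overlapped, at 12.26 to 12.46 in starved and 12.43 to 12.57 in unstarved samples, while Polr3b levels did not, at 12.83 to 12.89 in starved and 12.71 to 12.77 in unstarved samples.

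The Pol II subunits gave no call. All 7 genes had a log2 ratio below 0, from −0.33 to −0.05, while 49.3% of all genes were below 0. On all 4 hybridisations 6 of the 7 were below 0, as were 33.3% of all genes. The median of the 7 was −0.22, and it was −0.22 on hybridisations 1, 2 and 3 and −0.27 on hybridisation 4. The lowest value was that of Polr2d, which with Polr2g forms the stalk of the enzyme, with −0.22, −0.43, −0.22 and −0.44 (mean −0.33 ± 0.13, limma adjusted p = 0.059). Polr2a, the largest subunit, whose tail of repeats is phosphorylated during transcription, had levels of 9.48, 9.54, 9.55 and 9.58 in starved samples and 9.77, 9.85, 9.81 and 9.88 in unstarved samples. These did not overlap, and its log2 ratio was −0.29 ± 0.12 (limma adjusted p = 0.085). Polr2b, the second catalytic subunit, was 0.13, −0.19, 0.07 and −0.22, of opposite sign in the replicates, with levels of 15.32 to 15.50 in starved and 15.37 to 15.57 in unstarved samples, which overlapped.

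Pol I was represented by a single gene under the naming rule. Polr1e, a subunit of the module that helps Pol I bind DNA and start transcription, had levels of 11.76, 11.57, 11.70 and 11.62 in starved samples and 12.31, 12.28, 12.25 and 12.32 in unstarved samples. The groups lay far apart, and the log2 ratio was −0.63 ± 0.12 (1.55-fold lower, limma adjusted p = 0.0010), with −0.55, −0.71, −0.55 and −0.70 on the hybridisations. Its probe, at chr4:45052471-45052530 (mm8, plus strand), is shown as the only Pol I probe that the name rule found.
Polr1e probe: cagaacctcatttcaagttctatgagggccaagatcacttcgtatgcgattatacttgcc

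The array lists other genes of the same families under older names, and 7 such genes fall outside the rule. Of these, Polr1b, the second catalytic subunit, was lower in starved cells, with levels of 13.09, 12.98, 13.04 and 13.03 in starved samples and 13.64, 13.58, 13.55 and 13.61 in unstarved samples. They did not overlap, and its log2 ratio was −0.56 ± 0.12 (limma adjusted p = 0.0023). Polr1a, the largest subunit, had −0.43, −0.12, −0.43 and −0.08, overlapping levels of 15.16 to 15.49 in starved and 15.44 to 15.71 in unstarved samples, and was not called (−0.27 ± 0.13, adjusted p = 0.13), although it was with all its probes averaged (−0.43, adjusted p = 0.013). The Pol I subunits Cd3eap (−0.48), Znrd1 (−0.36) and Twistnb (−0.24) carry names of their own, and the first 2 were lower. Under any array name, 6 subunits found in Pol I alone were thus tested, with a median of −0.42. Of these 6, 4 were lower, while 13.4% of all genes were called lower. Of the subunits shared by Pol I and Pol III, Polr1d was lower (−0.35 ± 0.13, adjusted p = 0.047) and Polr1c was at 0.02. The call of Polr1d ended without hybridisation 3 (−0.35) or without hybridisation 4 (−0.34). Of the remaining older names, Gtf3c6, a TFIIIC subunit, was lower (−0.43 ± 0.12, adjusted p = 0.013), while Taf1d (−0.28) and Polr2m (−0.06) were not called. With the 7 older-name genes added, 60 genes were tested, with 4 higher and 11 lower. The 15 calls are 25% of these, against 31.4% of all genes, and the 11 lower are 18.3%, against 13.4%.

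**Figure D3:**
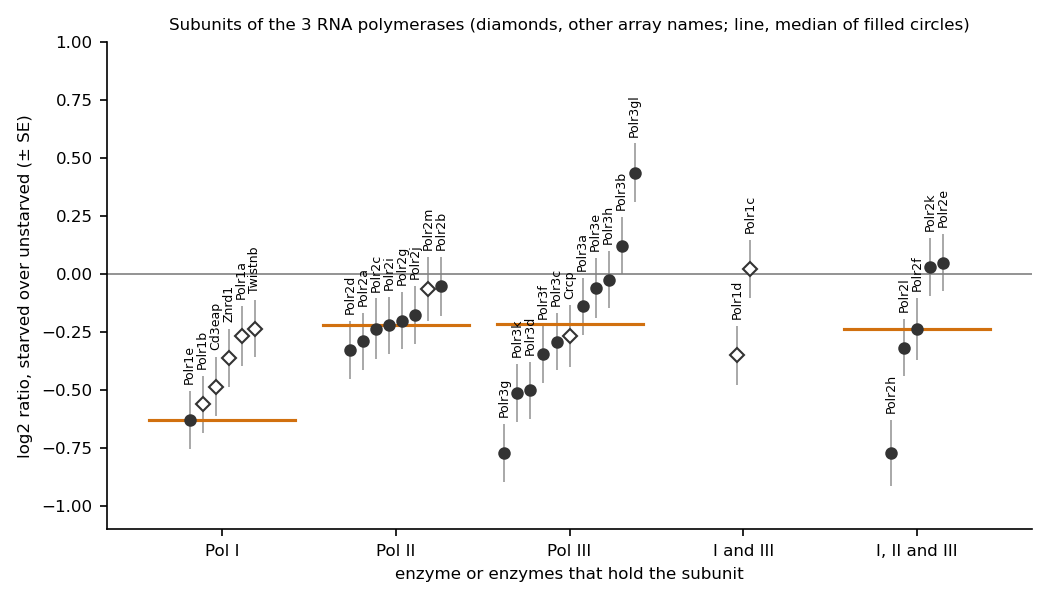
Log2 ratio, starved over unstarved, with the standard error (vertical axis) of each polymerase subunit, by the enzyme or enzymes that hold it (horizontal axis). Filled circles follow the naming rule, diamonds are genes under other array names and orange lines are medians of the filled circles; with loess, as plotted, the lines for Pol II (−0.22) and Pol III (−0.21) lie close together, with a wider spread in Pol III, while with median centring they were −0.51 and −0.31.

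Between enzymes, the medians over genes were −0.22 for Pol II and −0.21 for Pol III, and their order changed between hybridisations: Pol III was lower on hybridisations 1, 2 and 3, and Pol II on hybridisation 4. This closeness depends on the normalization, since with median centring the medians were −0.51 for Pol II and −0.31 for Pol III. Pol I had −0.63 with its 1 member. With subunits under any array name, Crcp of Pol III among them, the medians were −0.42 for Pol I (6 genes), −0.21 for Pol II (8 genes) and −0.27 for Pol III (11 genes), and −0.57, −0.48 and −0.39 with median centring. With loess, Pol I was the lowest of the 3 on each hybridisation, a description that rests on few genes and was not tested. With the shared subunits included as well, the medians were −0.32, −0.22 and −0.25 for Pol I (13 genes), Pol II (13 genes) and Pol III (18 genes).

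Of the 5 small subunits shared by all 3 enzymes, Polr2h was lower in starved cells (13.4% of all genes were called lower) and the others were not called. Polr2h levels were 13.51, 13.24, 13.58 and 13.03 in starved samples and 14.00, 14.27, 14.07 and 14.10 in unstarved samples. The groups did not overlap, and the size differed between replicates: the log2 ratio was −0.49 on hybridisations 1 and 3, and −1.04 and −1.07 on hybridisations 2 and 4 (mean −0.77 ± 0.14, 1.71-fold lower, limma adjusted p = 5.5e-04). The shared class had a median of −0.24, with Polr2l at −0.32 (adjusted p = 0.062), Polr2f at −0.24, Polr2k at 0.03 and Polr2e at 0.05. The 3 probes of Polr2e differed in sign, between −0.13 and 0.05.

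Among the TAFs of TFIID, the complex that recognizes Pol II core promoters, 1 gene was higher, 2 were lower and 3 were not called. Over all genes tested, 18.1% were called higher and 13.4% lower, and so small a class allows no comparison of shares. Taf1, the scaffold of the complex, had levels of 11.49, 11.26, 11.37 and 11.35 in starved samples and 10.84, 10.46, 10.76 and 10.53 in unstarved samples. The groups did not overlap, and the log2 ratio was 0.72 ± 0.12 (1.65-fold higher, limma adjusted p = 3.2e-04), with 0.65, 0.80, 0.62 and 0.82 on the hybridisations. All 6 probes were above 0, but the other 5 gave 0.17 to 0.37, and averaging them all gave 0.35, which kept the call. The brightest probe and one of the others are shown for that contrast, at chrX:97764930-97764989 and chrX:97745314-97745373 (mm8, plus strand), with log2 ratios of 0.72 and 0.17.
Taf1 brightest probe: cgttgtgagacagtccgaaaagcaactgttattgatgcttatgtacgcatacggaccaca
Taf1 other probe: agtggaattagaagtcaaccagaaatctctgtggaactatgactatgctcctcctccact
Taf12, a histone-fold subunit, was 13.12, 13.02, 13.16 and 13.00 in starved samples and 13.36, 13.54, 13.39 and 13.50 in unstarved samples, without overlap (−0.38 ± 0.13, limma adjusted p = 0.034). Taf11, another histone-fold subunit, had −0.35 ± 0.12 (limma adjusted p = 0.040). Both calls ended with Agilent's processed signals, at log2 ratios of −0.39 for Taf12 (adjusted p = 0.054) and −0.37 for Taf11 (adjusted p = 0.058), with 30.6% of all genes called. Taf15, an RNA-binding protein of the FET family that associates with TFIID, had −0.35, 0.39, −0.36 and 0.39 on hybridisations 1 to 4, the widest disagreement between replicates among the members.

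**Figure D4:**
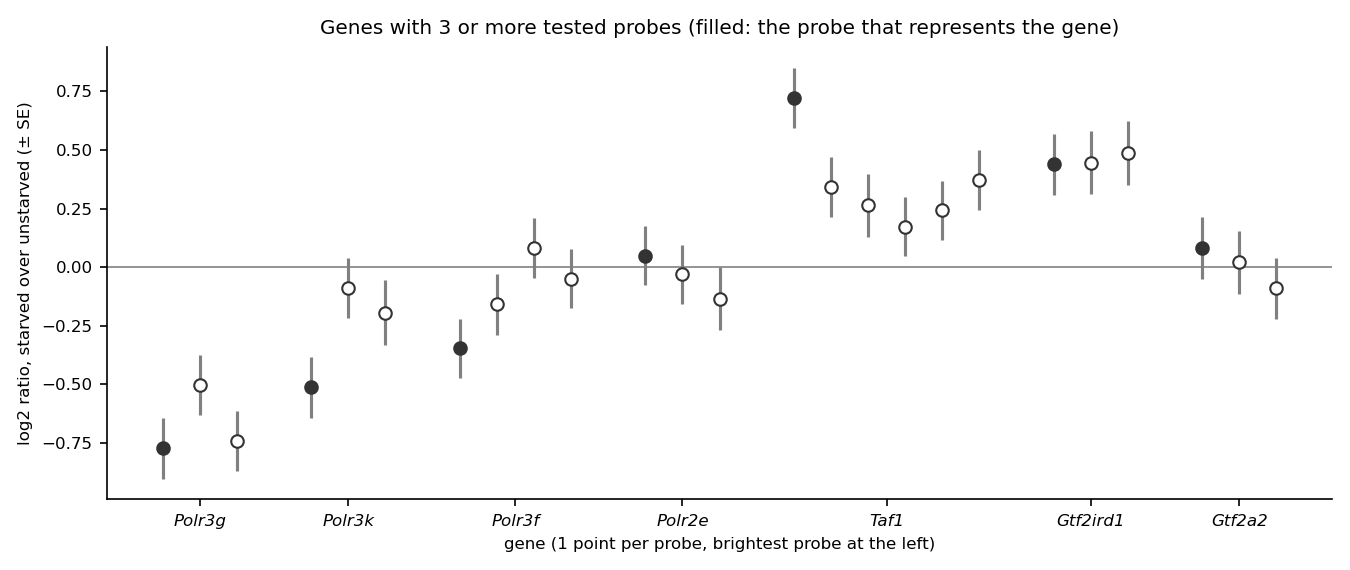
Log2 ratio, starved over unstarved, with the standard error (vertical axis) of every tested probe of the 7 genes with 3 or more tested probes (horizontal axis), brightest at the left. Filled points represent the gene. The Gtf2ird1 probes lie close together, and the Polr3g probes all lie at −0.50 or below. For Polr3g, Polr3k, Polr3f and Taf1 the filled point is the farthest from 0.

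None of the 12 tested genes of TFIIA, TFIIB, TFIIE, TFIIF and TFIIH was called with its brightest probe, and their median was −0.17. With all probes averaged, Gtf2h2 (−0.39, limma adjusted p = 0.023) and Gtf2f2 (−0.35, adjusted p = 0.035) were called lower, and their second probes were called when tested singly (−0.48 and −0.38). The 5 TFIIH subunits belong to the complex that opens promoter DNA and also serves nucleotide excision repair. All 5 were below 0 on all 4 hybridisations, as were 33.3% of all genes. The TFIIH median was −0.27 with loess and −0.40 with median centring. With loess, Gtf2h2 had the lowest value of the 5, at −0.22, −0.37, −0.22 and −0.36 (mean −0.29 ± 0.12, limma adjusted p = 0.084). Its levels of 12.43 to 12.57 in starved and 12.70 to 12.86 in unstarved samples did not overlap. In the other classes the lowest values were −0.32 for Gtf2f2 of TFIIF (−0.27, −0.39, −0.29 and −0.31), −0.27 for Gtf2e1 of TFIIE (−0.19, −0.37, −0.17 and −0.35) and −0.13 for Gtf2a1 of TFIIA (−0.10, −0.17, −0.12 and −0.15). Probes of Gtf2a2 (−0.09 to 0.08) and Gtf2h5 (−0.20 and 0.10) differed in sign within the gene.

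The TFII-I family stood on the other side of 0. These factors carry repeated TFII-I domains, act at selected Pol II promoters and respond to signals, and their human genes lie together in the Williams-Beuren region. With their brightest probes all 3 were above 0 on all 4 hybridisations (36.1% of all genes), and 2 were called higher (18.1% of all genes). Their median was 0.44. With median centring the median was 0.16, with Gtf2i at 0.09, Gtf2ird1 at 0.16 and Gtf2ird2 at 0.58, and none was called. Gtf2ird2 had levels of 13.36, 13.07, 13.29 and 13.10 in starved samples and 12.42, 12.58, 12.40 and 12.63 in unstarved samples. They did not overlap, and the log2 ratio was 0.69 ± 0.13 (1.62-fold higher, limma adjusted p = 8.5e-04), with 0.93 and 0.89 in replicate 1 and 0.49 and 0.47 in replicate 2. A second Gtf2ird2 probe gave 0.75.

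Gtf2ird1 had levels of 15.48, 15.66, 15.60 and 15.59 in starved samples and 15.18, 15.08, 15.30 and 15.01 in unstarved samples, without overlap. Its log2 ratio was 0.44 ± 0.13 (limma adjusted p = 0.015), and its other probes gave 0.45 and 0.49. These other probes share 40 bases, in capitals, and so are not independent measurements.
Gtf2ird1 probe, 0.49: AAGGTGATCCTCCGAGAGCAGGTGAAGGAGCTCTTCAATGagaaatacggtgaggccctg
Gtf2ird1 probe, 0.45: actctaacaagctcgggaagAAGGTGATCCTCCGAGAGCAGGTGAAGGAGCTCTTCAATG
Gtf2i, the founding member, had 0.13, 0.51, 0.10 and 0.51 and was not called (0.31 ± 0.13, adjusted p = 0.084). Its levels overlapped, at 14.54 to 14.87 in starved and 14.32 to 14.58 in unstarved samples. A second Gtf2i probe gave −0.03, 0.60, −0.02 and 0.58 on hybridisations 1 to 4, and so was below 0 in replicate 1.

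For the factors of Pol III and Pol I, no member was called. Gtf3a, which binds the 5S gene, was at −0.03. The 5 TFIIIC subunits, which bind promoters inside transfer RNA genes, ranged from −0.31 (Gtf3c4) to 0.31 (Gtf3c5), with a median of −0.06. Gtf3c5 had 0.21, 0.42, 0.23 and 0.39 (adjusted p = 0.068), with levels of 14.85 to 14.95 in starved and 14.46 to 14.64 in unstarved samples, which did not overlap. Of the 3 SL1 subunits, Taf1c had −0.33, −0.20, −0.40 and −0.21 (mean −0.29 ± 0.12, adjusted p = 0.095), with levels that did not overlap, and Taf1b and Taf1a had −0.10 and 0.16. The tested probes of Taf1a differed in sign, at 0.16 and −0.27.

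Machinery that works with these members but has other names was described by a list of 87 genes, all tested: 6 were higher and 11 lower in starved cells, with a median of −0.05. The 17 calls are 19.5% of the list, against 31.4% of all genes, and the 11 lower are 12.6%, against 13.4%. Among 10 partners of Pol III, Maf1, the repressor of Pol III, was higher (0.81 ± 0.13, limma adjusted p = 2.1e-04), with 0.61 and 1.03 on hybridisations 1 and 2, and Snapc5 was lower (−0.38). Among 6 partners of Pol I, the Pol I subunits Cd3eap (−0.48) and Znrd1 (−0.36) were lower. The 11 other genes of TBP and TFIID gave 0 calls. Of 5 remaining TFIIH genes, Cdk7, its kinase, was lower (−0.51, adjusted p = 0.0074). Of 19 elongation factor genes, 3 were higher, led by Ell3 (1.22) and Nelfe (0.46), and 1 was lower. Of 31 Mediator genes, Cdk19 was higher (0.85) and 5 were lower, led by Med13 (−0.64, and −0.33 with all probes averaged, adjusted p = 0.046). In the mitochondrial set of 5 genes, Tfam was higher (0.38) and Tfb2m lower (−0.38), and both calls ended when all probes of a gene were averaged (0.07 and −0.29).

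Every call among the members ended under one other normalization. With median centring in place of loess, 249 of all genes (1.55%) and 0 members were called by limma, with 1 member lower at an unadjusted p below 0.05, although all 12 kept their direction. The log2 ratio was larger in size than with loess for 8 of the 12, the 8 lower genes, among them Polr2h (−0.93), Polr3g (−0.84), Polr3k (−0.71) and Polr1e (−0.70). It was smaller for the 4 higher genes, at 0.69 for Taf1, 0.58 for Gtf2ird2, 0.28 for Polr3gl and 0.16 for Gtf2ird1. The median of all genes was then −0.08 and that of the members −0.35. How the hybridisations are paired moved the counts in the other direction. With 1 and 2 as one replicate and 3 and 4 as the other, 12 members were higher and 35 lower, and 89% of all genes were called. With 1 and 4 against 2 and 3, 11 were higher and 35 lower, with 87.8% of all genes called, and a dye term gave 11 and 35, with 88.4%. Both pairings average across the labelled replicates, and the dye term takes up the difference between them. The error is then that of repeat hybridisations, so these calls do not measure the spread between replicates. The random replicate block and the single channels each gave 5 members higher and 15 lower, with 33.4% and 36.5% of all genes called. When probes were tested one by one, 8 of 89 member probes were higher and 14 lower, and 29.5% of all probes were called.

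**Figure D5:**
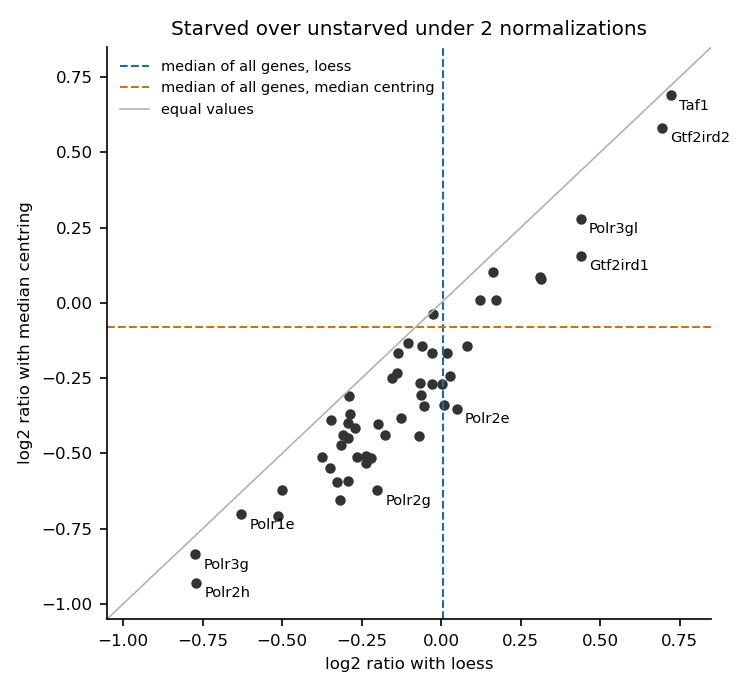
Log2 ratio, starved over unstarved, of each of the 53 members with loess (horizontal axis) and with median centring (vertical axis). Dashed lines are the medians of all genes, 0.01 with loess and −0.08 with median centring, and the grey line marks equal values; nearly all members lie below the grey line, and the 4 called higher stay above 0.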

How the data were processed

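Total RNA of IMCD3 cells was measured on Agilent 2-colour arrays of 60-base probes, 4 hybridisations that per the file headers share 1 slide and 1 scan, which leaves no batch to test. Per the file headers, the deposited spot intensity values are the output of Agilent Feature Extraction 9.5.3.1, which the submitters' processing notes also name; both samples of a hybridisation carry the same file, so each sample was read from the channel of its labelled dye. No deposited log2 values were used. Mean signals were corrected with normexp (offset 50) on the median local background and then loess-normalized array by array (R 4.3.3, limma 3.58.1). Of 45018 spots per array, 1639 controls and, over the 4 arrays, 583 outlier spots were left out; 0 spots were saturated. A probe entered if Feature Extraction marked it well above background on every array of either group (24589), and the brightest probe stood for its gene, a member probe for members, giving 16068 genes. Log2 ratios were averaged within a replicate, and the resulting 2 values were fitted with lmFit and eBayes, two-sided, so a gene's error rests largely on the shared prior (15.1 degrees of freedom, SD 0.180). The number of arrays limits the precision.

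Sample titles name the replicates. The series text takes these as biological and describes a dye swap of every pair, which the labels do not show; the labels were followed. The pairing of starved with unstarved samples is that of the arrays, as the series text states; samples of one number deviated from their groups' means with a correlation of −0.297 over genes, and because they carry opposite dyes this cannot test the pairing.

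Names came from accessions, symbols or synonyms in a RefSeq gene table for 24375, 6301 and 2426 probes, and 8072 probes kept the array name. Single-channel levels were taken after loess and Aquantile. Positions of probes come from the array design (mm8). Members, classes, gene lists and motifs were chosen with earlier results of these data known. Every member may be named; values of all hybridisations are given for the 10 called members with the largest ratio, the largest of each class and the largest subunits of each enzyme, and of other machinery the 2 called genes with the largest ratio per list are named. The fit was tested on simulated data. Alternatives covered normalization, background, the deposited intensity table, probe choice, filters, pairings and leaving out arrays. Members by current symbol and subunits under any array name were added after seeing the data.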

Additional observations from a re-analysis of the deposited data

Results flagged for a closer look

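Across the 4 hybridisations, the median log2 ratio of the Pol II subunits was −0.22 on hybridisations 1, 2 and 3 and −0.27 on hybridisation 4. The gap between hybridisation 4 and the nearest of the others made up 0.980 of the whole range, which set it apart as an outlying value. The range itself is 0.04 on the log2 scale. For 4 independent values, chance alone sets apart about 1 in 20 such groups. These 4 are 2 replicates on 2 hybridisations each, so that rate need not hold here.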

How the results depend on the processing

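None of the 12 called members reversed its direction under any alternative run. The counts depended most on the normalization and on how hybridisations were paired. With median centring, 249 genes, 0 members higher and 0 members lower were called, with medians of −0.51 for Pol II, −0.31 for Pol III, −0.079 for all genes and −0.33 for Polr1c, the last 2 against positive values with loess. The median of all genes was also below 0 with Agilent's processed signals (−0.0087), the deposited value table (−0.0087) and the mean of all probes (−0.0066). The Pol III median was −0.22 with a normexp offset of 10, the processed signals and the deposited value table, and −0.18 with the mean of all probes or with each probe tested, where 8 member probes were higher and 14 lower. Pairing hybridisations 1 and 2 against 3 and 4 called 14293 genes, with 12 members higher and 35 lower; pairing 1 and 4 against 2 and 3 called 14102, with 11 and 35; a dye term called 14200, with 11 and 35. The error in these pairings and with the dye term leaves out the spread between the labelled replicates. The random replicate block, and single channels with no replicate block, each called 15 members lower with none of the 12 calls lost. Leaving out one hybridisation gave Pol III medians of −0.21 to −0.22, and the call set of the members changed only without hybridisation 1, where Polr2d and Gtf2f2 passed the threshold (−0.33 and −0.32). Without replicate 1 the medians were −0.26 for Pol II and −0.24 for Pol III; without replicate 2 the Pol III median was −0.24. Between these settings Polr2b ranged from −0.21 to 0.10, Polr1c from −0.11 to 0.15 and Polr2m from −0.31 to 0.18. No test is left without a replicate. With shared subunits added to the members of each enzyme, the medians were −0.28 for Pol I and −0.24 for Pol III; under any array name, chosen after seeing the data, they were −0.42 and −0.27, and −0.32 and −0.25 with shared subunits. Outside the members, Znrd1 (−0.36), Tfam (0.38) and Tfb2m (−0.38) lost their calls with the processed signals. The causes of these shifts were not tested. Probes not well above background had no test.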
